A study of Arabidopsis thaliana with 12 samples.

Results

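A small group of genes of oxidant and carbonyl metabolism is described here in dark-treated Arabidopsis: AT3G52960, a plastid type II peroxiredoxin, AT5G44000, of the glutathione S-transferase family, and AT2G27680, an aldo-keto reductase. Each was measured by 1 feature whose platform annotation lists that gene alone, so the 3 genes are 3 of 692 such features and of 3439 features in all. They were picked by identifier because their difference between the flu mutant and the wild type (WT) was among the highest or lowest on these same arrays. That difference is therefore given as a description, with no test.

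The study held 6 arrays of the flu mutant and 6 of WT, all of ecotype Landsberg and all harvested after 12 h of darkness. The mutant lacks FLU, a negative regulator of chlorophyll synthesis. The sources used here give neither the allele, age, tissue or array type nor whether the 6 arrays of a genotype came from separate plants. The p-values thus reflect spread between arrays that may be technical. FLU had no feature of its own and did not check the labels. Without FLU, plants are known to build up protochlorophyllide in the dark. This pigment precedes the light-requiring step of chlorophyll synthesis and makes singlet oxygen once light returns.

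The deposited values were linear intensities from 0 to 100 on every array, in units whose scaling is unknown. The median of an array was 0.426 to 0.442 in flu and 0.443 to 0.491 in WT, and 138 to 165 features were listed at 0 on flu arrays against 108 to 131 on WT arrays. Log2 values below are on a scale with values under 0.0236 raised to that floor and with all arrays quantile normalised. Differences are flu minus WT. Arrays 1 and 2, 3 and 4, and 5 and 6 of a genotype resembled each other (Spearman correlations of 0.909 to 0.967) and are called couples here. Correlations between couples were 0.893 to 0.942 in flu, which overlaps that range, and 0.780 to 0.872 in WT. The labels do not name such couples. Of the tissue markers listed, 4 of 7 leaf genes were measured. PSBW of photosystem II read 18.4 to 21.8 on flu arrays and 13.5 to 20.9 on WT arrays. PRK, the dimmest of the 4, read 0.403 to 0.619 on flu arrays and 0.644 to 1.40 on WT arrays. The 6 seed and root markers had no feature of their own. In bulk samples fewer cells of a type and less RNA per cell cannot be told apart.

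Peroxiredoxins are thiol enzymes that reduce hydrogen peroxide and organic hydroperoxides. Type II members such as AT3G52960, also called PRXIIE, draw their electrons from small thiol donors such as glutaredoxin and glutathione. Glutathione S-transferases join glutathione to reactive compounds or use it to reduce them, and aldo-keto reductases use NADPH to reduce aldehydes and ketones. Chloroplasts use such enzymes to remove peroxides and reactive carbonyls formed near the photosynthetic membrane. RefSeq lists 1 transcript and 1 protein for each of the 3 genes. None of the genes next to them on the chromosome in assembly TAIR10.1 had a feature of its own.

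The peroxiredoxin gene AT3G52960 read 1.29, 1.41, 1.20, 1.34, 1.03 and 0.859 on flu arrays 1 to 6. On WT arrays 1 to 6 it read 0.374, 0.344, 0.323, 0.366, 0.225 and 0.159. The lowest flu array was above the highest WT array, and arrays 5 and 6 were the lowest of both genotypes. The mean was 1.19 ± 0.208 in flu and 0.299 ± 0.0870 in WT (SD, n = 6 arrays each), a ratio of deposited means of 3.98. Set against each array's own median, the feature stood at 2.01 to 3.25 times the median in flu and at 0.347 to 0.846 times the median in WT. It was thus above the middle of the intensity range on all 6 flu arrays and below it on all 6 WT arrays.

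The glutathione S-transferase gene AT5G44000 read 0.477, 0.627, 0.431, 0.354, 0.398 and 0.441 on flu arrays 1 to 6. On WT arrays 1 to 6 it read 0.292, 0.142, 0.157, 0.112, 0.112 and 0.0765. The groups did not overlap, but WT array 1 lay close under the lowest flu array and well above the other WT arrays. The mean was 0.455 ± 0.0940 in flu and 0.149 ± 0.0757 in WT (SD, n = 6 arrays each), a ratio of deposited means of 3.06. Couples averaged 0.552, 0.392 and 0.420 in flu and 0.217, 0.134 and 0.0943 in WT. The first couple was the highest of both genotypes.

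The aldo-keto reductase gene AT2G27680 ran the other way. It read 0.0701, 0.0682, 0.0177, 0, 0.0761 and 0.0811 on flu arrays 1 to 6. On WT arrays 1 to 6 it read 0.164, 0.297, 0.384, 0.280, 0.465 and 0.432. All flu arrays were below all WT arrays, and flu arrays 3 and 4 lay below the floor, with array 4 listed at 0. The mean was 0.0522 ± 0.0343 in flu and 0.337 ± 0.112 in WT (SD, n = 6 arrays each), so the WT mean was 6.46 times the flu mean. It stood at 0 to 0.190 times the array median in flu and at 0.371 to 0.999 times the median in WT.

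**Figure D1:**
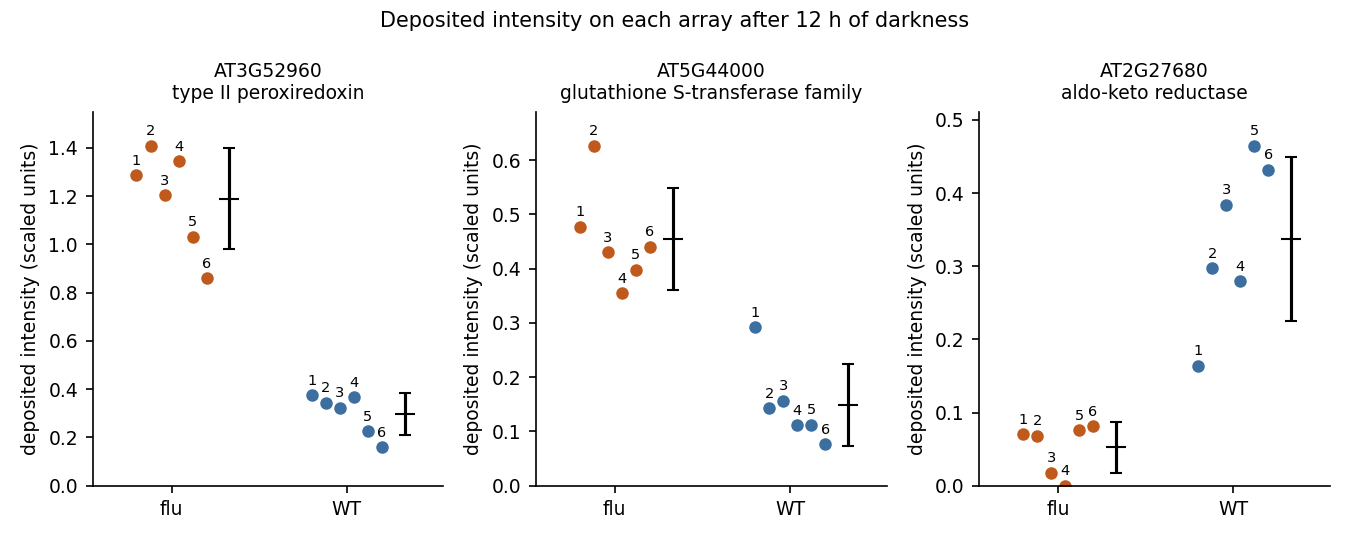
Deposited intensity (scaled units, linear axis from 0) of the 3 genes on each flu and WT array, with the array number beside each point and the mean and SD of 6 arrays at the right of each group. The flu arrays of AT3G52960 (0.859 to 1.41) and AT5G44000 (0.354 to 0.627) lie above all WT arrays, and those of AT2G27680 (0 to 0.0811) lie below all WT arrays.

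Over the 12 arrays limma called 52.2% of all 3439 features, 23% as higher and 29.2% as lower in flu, and 49.7% of the 692 features with 1 gene. Among those 692, 12.3% had all flu arrays above all WT arrays and 22.3% had all flu arrays below all WT arrays. Since the genes were chosen for their difference, nothing is read from the separation of the 3 genes against these shares. On the normalised log2 scale the difference was 2.21 for AT3G52960, 2.21 for AT5G44000 and -2.25 for AT2G27680. AT5G44000 and AT3G52960 ranked 8 and 9 from the top of the 692 features, and AT2G27680 ranked 3 from the bottom. Without quantile normalisation the 3 values were 2.04, 1.72 and -2.66, while the median of all features was -0.20, against -0.04 after normalisation. Relative to those medians the difference of the peroxiredoxin moved little with the scaling, and that of the transferase was smaller without normalisation.

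Differences were also taken within array numbers, because same-numbered flu and WT arrays deviated together from their group means. They regroup the same values that chose the genes, so they describe only how the difference varied. For AT3G52960 the difference within a number ran from 1.81 to 2.69 on the log2 scale over the 6 numbers, with an SD of 0.30. For AT5G44000 it ran from 0.85 at number 1 to 3.23 at number 6, with an SD of 0.78. For AT2G27680 it ran from -0.64 at number 1 to -3.86 at number 3, with an SD of 1.16. The sign was the same in 6 of 6 numbers for each gene, which was bound to hold because the groups did not overlap. The difference thus varied least for the peroxiredoxin and most for the aldo-keto reductase, whose 2 largest differences, at numbers 3 and 4, rest on flu values below the floor.

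**Figure D2:**
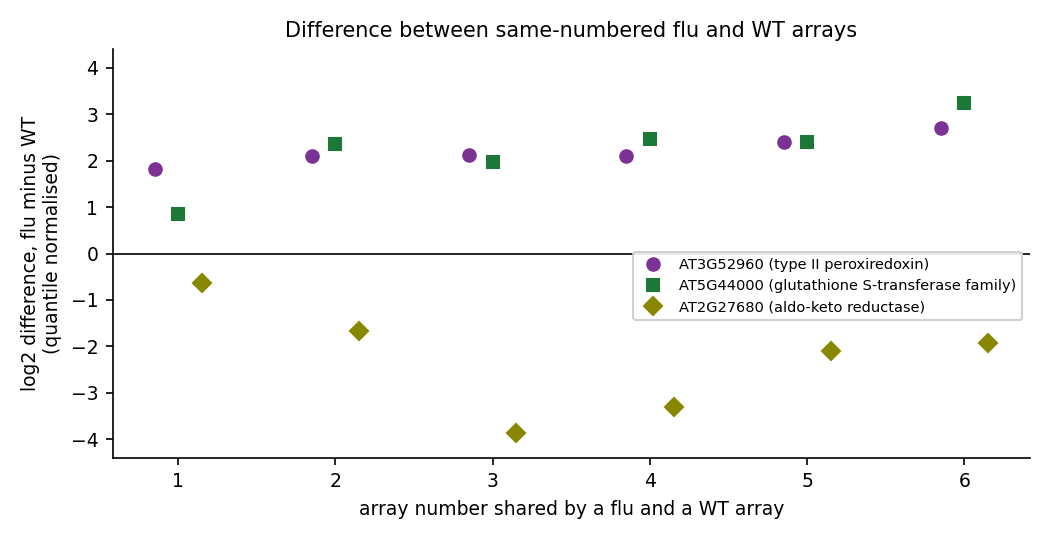
Log2 difference (flu minus WT, quantile normalised) between the flu and the WT array of each number for the 3 genes. AT3G52960 stays between 1.81 and 2.69, AT5G44000 spans 0.85 to 3.23, and AT2G27680 spans -3.86 to -0.64.

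Spread within a genotype differed between the genes. On the log2 scale the SD of AT3G52960 was 0.25 in flu and 0.53 in WT, and that of AT5G44000 was 0.27 in flu and 0.86 in WT. AT2G27680 had an SD of 1.07 in flu, set by the floored arrays 3 and 4, and of 0.62 in WT. Pooled over genotypes, the SD of the 3 genes was 0.41, 0.64 and 0.87, larger than in 66.3%, 85.2% and 92.7% of all features, whose median was 0.33. For each gene the genotype with the lower readings scattered more widely on the log2 scale.

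A shift with the array number, averaged over genotypes, is independent of the contrast that chose a gene where spread is alike in both genotypes. Spread was not alike for these genes, since the genotype with the lower readings scattered more widely. The shift was tested with that limit. A limma F test of array number, with genotype as a term, called 142 of 3439 features (4.13%) at an adjusted p below 0.05. AT3G52960 did not pass (limma adjusted p = 0.143, unadjusted 0.0157), with mean deviations of 0.31 at number 1 and -0.67 at number 6. AT5G44000 had an adjusted p of 0.449 in limma and deviated by 0.76 at number 1. That deviation came mostly from WT array 1, at -1.88, against -4.34 to -3.00 on the other WT arrays. Flu array 1, at -1.02, lay within the range of the other flu arrays. AT2G27680 had an adjusted p of 0.529 in limma and deviated by -0.85 at number 4. Its flu array 4 was listed at 0 and set by the floor. For this gene the test is therefore not independent of the low flu level that chose it. A miss of the threshold does not show that the numbers read alike, since each number has 1 array per genotype.

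Deviations from the genotype means were compared among the 3 genes over the 12 arrays, as a description. Pearson's r was 0.67 between AT3G52960 and AT5G44000, -0.52 between AT3G52960 and AT2G27680, and -0.22 between AT5G44000 and AT2G27680. Among WT arrays alone (n = 6) the same values were 0.75, -0.80 and -0.76, and among flu arrays (n = 6) they were 0.20, -0.43 and 0.54. WT arrays with high peroxiredoxin and transferase readings thus had low aldo-keto reductase readings, and the flu arrays did not repeat that order for the transferase. The points share arrays, couples and normalisation.

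The features most like each gene over the 12 arrays on the log2 scale were taken among the others with 1 gene. For AT3G52960 these were AT2G30100 (r = 0.98), AT3G04210 (r = 0.97) and AT4G35660 (r = 0.97). AT2G30100 read 2.21 to 2.52 on flu arrays and 0.347 to 0.637 on WT arrays. With genotype means removed, the nearest were AT3G26630 (r = 0.94), AT2G27290 (r = 0.92) and AT2G43180 (r = 0.87), so a different set followed the peroxiredoxin within genotypes. AT2G43180 went against it between genotypes, at a log2 value of -1.11. Its flu array 6 lay below the floor and far under its other flu arrays. That array was also the lowest flu array of AT3G52960, so it weighs on this r.

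AT5G44000 had 1 neighbour in pattern that came first on both measures. AT1G32220 correlated at r = 0.98 over the 12 arrays and at r = 0.95 with genotype means removed. It read 0.549, 0.537, 0.433, 0.374, 0.321 and 0.344 on flu arrays 1 to 6 and 0.336, 0.198, 0.167, 0.127, 0.103 and 0.0738 on WT arrays 1 to 6. Like the transferase it was highest on WT array 1 among WT arrays and lowest on WT array 6. AT1G73470 (r = 0.96) and AT2G22050 (r = 0.94) followed over the 12 arrays, and AT5G26850 (r = 0.84) and AT4G00870 (r = 0.83) with genotype means removed.

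AT2G27680 had the same 3 nearest features on both measures. AT4G22490 correlated at r = 0.95 over the 12 arrays and 0.85 with genotype means removed, AT4G16410 at 0.95 and 0.88, and AT1G11730 at 0.93 and 0.81. AT4G16410 stayed above the floor on all arrays, at 0.262 to 0.420 in flu and 0.596 to 0.699 in WT. Its readings on flu arrays 3 and 4, 0.262 and 0.269, were also its lowest. In 8 features, 4 of them with 1 gene, flu arrays 3 and 4 and no other flu array lay below the floor, and AT2G27680 was one of these. The same count was 5 for flu arrays 1 and 2 and 4 for flu arrays 5 and 6, and 3, 2 and 0 for the WT couples in order of number.

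Feature numbers form 48 strips of 6 neighbouring numbers that recur at a fixed period, and the mean difference between genotypes varied among these strips from -0.67 to 0.61. Strip membership is a position in the number series, and the files do not say what it stands for. AT3G52960 lay in strip 40, whose 74 features had a mean of 0.49, and 1 of them exceeded the gene. AT5G44000 lay in strip 35, whose 73 features had a mean of 0.39, and again 1 exceeded the gene. AT2G27680 lay in strip 17, with 70 features and a mean of -0.45, and had the lowest value of its strip. Each gene thus sat in a strip that leaned the way of the gene. Its place near or at the edge of the strip follows from its choice for a large difference. With the strip deviation subtracted and couples averaged, the differences were 1.72, 1.82 and -1.80. The features named above as most like AT3G52960 over the 12 arrays lay in strips 37, 32 and 36. Those most like AT5G44000 lay in strips 40, 38 and 37, so AT1G32220 shared the strip of the peroxiredoxin. For AT2G27680 the strips were 7, 47 and 9. With genotype means removed they were 16, 17 and 23 for AT3G52960 and 40, 28 and 2 for AT5G44000. A part of strip position in these correlations was not tested.

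**Figure D3:**
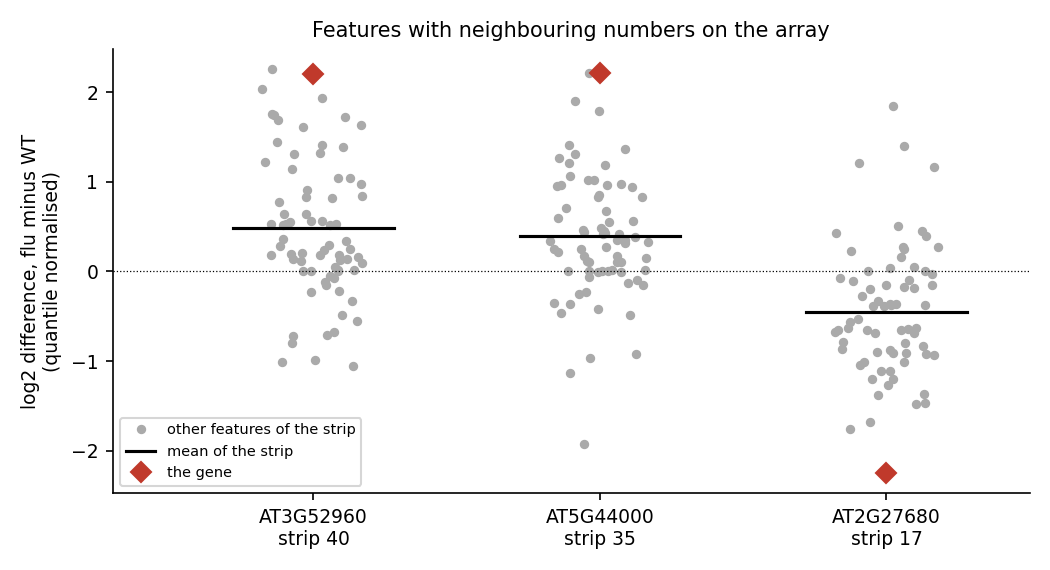
Log2 difference (flu minus WT, quantile normalised) of the features that share a strip of feature numbers with each gene. Diamonds mark the genes, grey points the other features, and bars the strip means of 0.49, 0.39 and -0.45, so each strip leans the way of its gene. The gene lies near or at the edge, as follows from its choice for a large difference.

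The pathway around the 3 genes was examined through 9 lists with 191 further genes: peroxiredoxins, thiol reductants, glutathione transferases, glutathione metabolism and peroxidases, aldo-keto reductases, carbonyl enzymes, the ascorbate cycle with superoxide dismutases and catalases, ascorbate and tocopherol synthesis, and methionine sulfoxide reductases. Only 6 of the 191 had a feature of their own. A gene is said to have fallen where limma's adjusted p was below 0.05 over 12 arrays, with couples averaged, and with couples averaged and strips centred. Over 12 arrays 5 of the 6 were called lower and 0 higher, against 26.6% lower and 23.1% higher among all features with 1 gene. In all 3 analyses 3 of the 6 were lower and 0 higher, against 11.4% lower and 8.53% higher. Their median log2 difference was -0.89, against -0.0038 for the 692 features, and -0.41 with strips centred, against -0.10. No other peroxiredoxin or glutathione transferase was among the 6, so nothing is shown of those families. The glyoxalase gene AT2G43430 (GLX2-1), of carbonyl metabolism, was left off the lists but also had a feature of its own. It stood at 0.22 on the log2 scale over 12 arrays (limma adjusted p = 0.493) and passed in none of the 3 analyses. The counts given here thus hold for the lists as drawn.

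AT2G04700, known as FTRB, encodes the catalytic subunit of the ferredoxin-thioredoxin reductase, which hands electrons from ferredoxin to plastid thioredoxins. Its readings were 0.174, 0.213 and 0.227 (lowest, median, highest) on the 6 flu arrays and 0.467, 0.593 and 0.851 on the 6 WT arrays. It fell to a mean of 0.209 ± 0.0196 in flu, against 0.6249 ± 0.159 in WT (SD, n = 6 arrays), a log2 difference of -1.33 ± 0.17 (SE; limma adjusted p = 6.02e-05). Averaging couples gave an adjusted p of 0.0127 in limma. Centring the strips as well gave 0.0104 and a difference of -1.12. It was the thiol reductant that changed least with the strips. It was lower in 6 of 6 numbers, as groups that do not overlap must be.

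NTRC, the plastid NADPH-thioredoxin reductase with a thioredoxin domain of its own, is known to reduce the 2-Cys peroxiredoxins. It read 0.304, 0.404 and 0.458 on flu arrays and 0.521, 0.752 and 0.859 on WT arrays. The difference was -0.73 ± 0.14 (SE; limma adjusted p = 0.00103, or 0.0367 on couple means), but -0.14 with strips centred (adjusted p = 0.652). SRX, the sulfiredoxin that repairs over-oxidised 2-Cys peroxiredoxins, read 0.359, 0.424 and 0.469 on flu arrays and 0.516, 0.682 and 0.872 on WT arrays. Its difference was -0.60 ± 0.12 (SE; limma adjusted p = 0.00122, or 0.0347 on couple means), and -0.27 with strips centred (adjusted p = 0.480). The groups of both genes did not overlap, yet most of either difference was shared by the features of the same strip.

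AT1G04420 was the 1 other aldo-keto reductase with a feature of its own. It read 0.374, 0.399 and 0.465 on flu arrays and 0.651, 0.991 and 1.06 on WT arrays. It fell by 1.06 on the log2 scale (SE 0.13; limma adjusted p = 3.60e-05), and by 0.55 with strips centred (adjusted p = 0.0395). Both aldo-keto reductases were thus lower in flu, AT2G27680 by the measure that chose it.

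GLDH, the enzyme of the last step of ascorbate synthesis, read 0.297, 0.359 and 0.414 on flu arrays and 0.921, 0.953 and 1.04 on WT arrays. It fell by 1.31 on the log2 scale (SE 0.08; limma adjusted p = 2.61e-07), and by 0.76 with strips centred (adjusted p = 0.0199). CCS, the chaperone that brings copper to superoxide dismutases, did not pass (limma adjusted p = 0.680) at -0.48 ± 0.87 (SE). It read 0, 0.101 and 0.231 on flu arrays and 0.00716, 0.228 and 0.329 on WT arrays. Arrays 3 and 4 of both genotypes were its lowest, and on flu arrays 3 and 4 it lay below the floor, as AT2G27680 did, while AT2G27680 on WT arrays 3 and 4 did not.

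**Figure D4:**
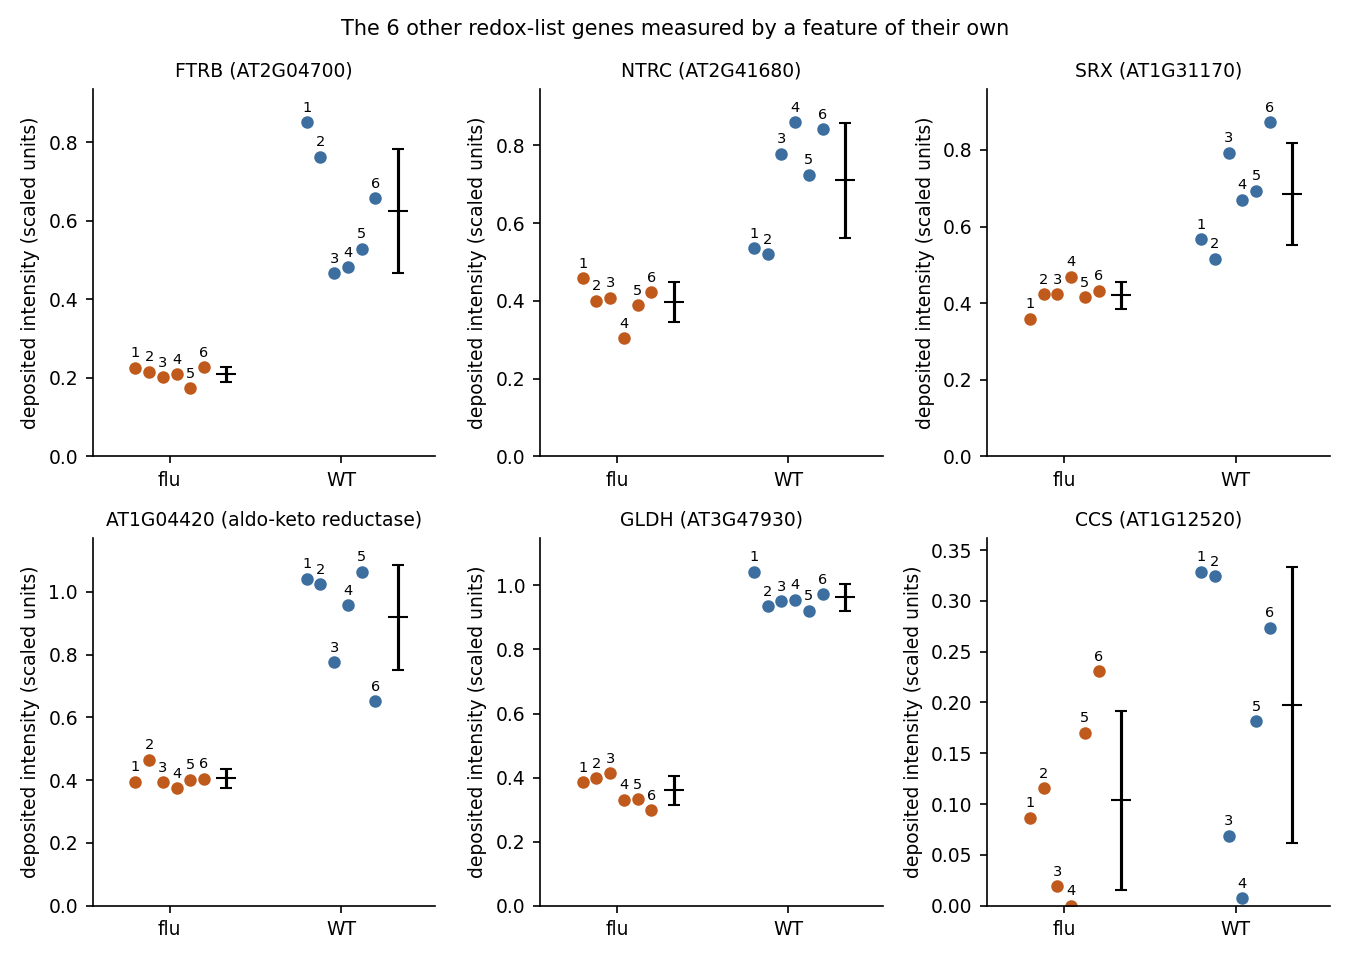
Deposited intensity (scaled units, linear axes from 0) of the 6 other measured genes of the redox lists on each array, with array numbers and the mean and SD of 6 arrays per genotype. For FTRB, NTRC, SRX, AT1G04420 and GLDH all flu arrays lie below all WT arrays, and for CCS the genotypes overlap, with arrays 3 and 4 lowest in both.

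Set beside the peroxiredoxin, which was chosen for its difference and stood at 2.21, the 3 thiol reductants had values of -1.33, -0.73 and -0.60 on the log2 scale. With strips centred the peroxiredoxin stood at 1.72, and FTRB, NTRC and SRX at -1.12, -0.14 and -0.27. Of the 3 reductants only FTRB passed there. The sign of all 9 genes held as deposited and with strips centred. FLU is known to restrain tetrapyrrole synthesis at its first step. Of the 17 genes listed for that pathway, 2 were measured. CHLM stood at -0.13 (limma adjusted p = 0.608) and the geranylgeranyl reductase AT1G74470 at 0.32 (limma adjusted p = 0.0970), so neither passed. HEMA3, a gene of the same pathway left off the list, also had a feature of its own. It stood at 0.11 and did not pass (limma adjusted p = 0.490). Of the 4 measured leaf markers 1, PRK, was called lower over 12 arrays (-0.73, limma adjusted p = 0.0173). It also passed with array number as a block (limma adjusted p = 0.00281). The call was lost when couples were averaged (limma adjusted p = 0.141). PSBW did not pass over 12 arrays (0.05, limma adjusted p = 0.671) or on couple means (limma adjusted p = 0.812). It passed as higher with strips centred too (0.59, limma adjusted p = 0.0280). Most of that value is thus the strip deviation that was subtracted. LHB1B2, an antenna protein, passed as lower with array number as a block (-0.26, limma adjusted p = 0.04996). Its direction turned as deposited (0.08) and with strips centred (0.28).

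**Figure D5:**
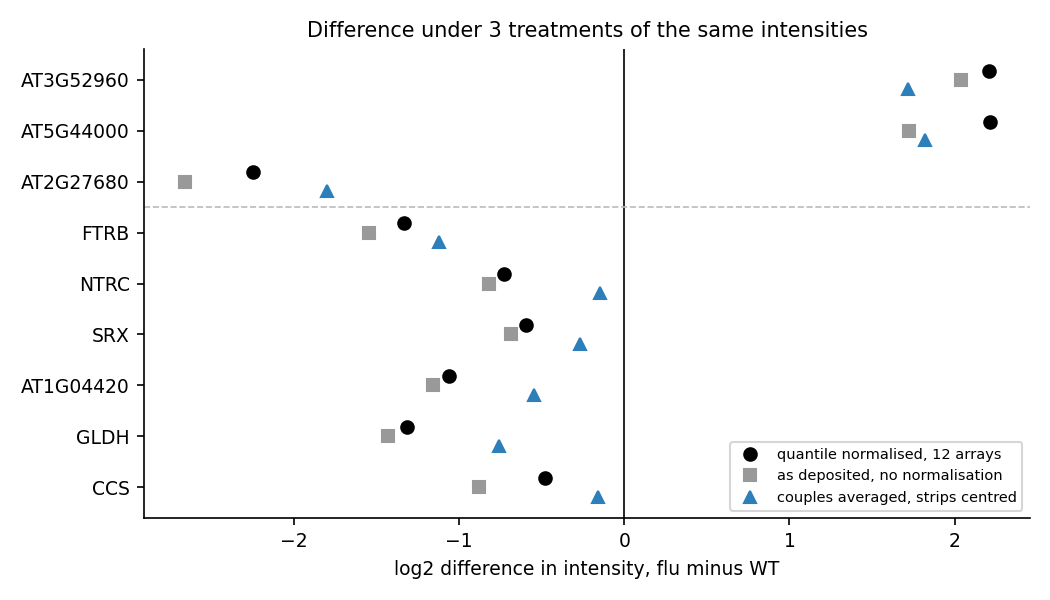
Log2 difference (flu minus WT) of the 3 genes, above the dashed line, and of the 6 other redox genes, below it, with quantile normalisation over 12 arrays, as deposited, and with couples averaged and strips centred. AT3G52960 lies at 2.21, 2.04 and 1.72, AT2G27680 at -2.25, -2.66 and -1.80, and NTRC moves from -0.73 to -0.14 with strips centred.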

How the data were processed

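Intensities of 3439 features on 12 arrays were used as deposited by the authors. How they were scanned and scaled is not given in the sources used here. Features were named from the platform's gene table: 692 had 1 gene, 870 several and 1877 were unlisted, and 690 of the 692 matched RefSeq (TAIR10.1). Values under the 1st percentile of all positive values were set to that percentile. Log2 values were then quantile normalised. limma 3.58.1 in R 4.3.3 fitted flu minus WT over all features, two-sided, with Benjamini-Hochberg adjustment. Deviations of same-numbered arrays correlated at 0.368 to 0.539, so the numbers in the titles were taken to pair the arrays. The block changed no call of the 6 redox genes. Precision is limited by the number of arrays.

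Genes named are the 3 chosen genes, at most 3 passing genes per list, every measured gene of the 3 families, and the 3 features most like each gene on either measure. PSBW, LHB1B2, AT1G74470, CHLM, HEMA3 and AT2G43430, and CCS, which did not pass, were added after their values were seen. Genes, lists, couples and strips were chosen with earlier results of these data known. The fits were tested on simulated data. Alternatives were other scalings, an offset of 0.05, the block, couples, strips, a filter on dim features, a fold limit and arrays left out. No sequences are printed.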

Additional observations from a re-analysis of the deposited data

Results flagged for a closer look

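In 3 of 46 groups of 6 arrays, 1 array lay far outside the range of the rest on the log2 scale, where chance gives about 1 in 20, or 2.3. NTRC (AT2G41680) was at -1.64 on flu array 4, against -1.26 to -1.09 on the other flu arrays. AT3G04210, one of the features most like the peroxiredoxin, was at 0.62 on flu array 6, against 0.82 to 0.86. AT2G43180, which followed the peroxiredoxin within genotypes, was at -5.41 on flu array 6, against -2.14 to -1.15. Its deposited value there was 0, so the floor sets that value. AT3G52960 was also lowest on flu array 6. None of the 3 chosen genes had such an array. For AT2G27680 the rule could not flag flu arrays 3 and 4, which are tied at the floor and hide each other.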

How the results depend on the processing

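The difference of AT5G44000 and AT2G27680 kept its sign and moved by less than 1 SD in 25 of 25 alternatives, and that of AT3G52960 in 23 of 25. The SD is each gene's own, pooled over genotypes: 0.41 for AT3G52960, 0.64 for AT5G44000 and 0.87 for AT2G27680. A given shift thus counts for less in AT2G27680, and the counts do not rank the genes by stability. The block and the averaging of couples cannot change these differences, and both strip settings give the same value. AT3G52960 moved to 1.72 with strips centred, with or without couples averaged. With single arrays left out the 3 differences ran from 2.03 to 2.32 (AT3G52960), 2.03 to 2.53 (AT5G44000) and -2.47 to -1.96 (AT2G27680). Without flu arrays 3 and 4, a choice made after seeing the data, AT2G27680 stood at -1.52, and with the offset at -1.61. The count of 1796 called features became 1193 with couples averaged, 956 with strips centred too, 1089 among features above the median intensity and 806 at an absolute log2 difference of at least 1. It was 1966 with the replicate block and 1665 to 1791 with single arrays left out. As deposited, 34.0% of the calls were higher, against 44.0%. Among features with 1 gene the count of 344 became 202 with couples averaged and strips centred, 205 above the median intensity and 163 with the fold limit, and ran from 316 to 340 with single arrays left out. The counts of 956 and 202 include features whose mean was 0 in both genotypes (-0.55 with strips centred, limma adjusted p = 0.04998). Such calls come from the centring alone. The redox genes called were 5 with any single array left out, 4 among features above the median intensity, where dimmer genes were not tested, and 3 with strips centred, with couples averaged too or not, and with the fold limit. The cause was not tested. The array-number tests did not pass under either alternative (limma adjusted p = 0.0819 to 0.607). Signal over background was not analysed here.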
